A study of Homo sapiens with 6 samples.

Results

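Genes for SR proteins, hnRNPs and the smaller PTBP, RBFOX, ESRP, MBNL and CELF families of splicing regulators were examined in AID-DIvA cells, WT or ARID1A-KO. The genes were taken by name from the deposited tables, leaving out pseudogene names, which gave 58 of 57820 genes and 56 distinct names, since SRSF8 and CELF6 are each listed under a second identifier. The names PTBP1, PTBP2, PTBP3 and ESRP2 end like pseudogene names but were kept because the selection lists them explicitly. AID-DIvA cells are a U2OS-derived osteosarcoma line that carries the AsiSI nuclease, which cuts the genome only after induction, and all samples were untreated. RNA-seq covered 3 WT samples and 3 samples in which ARID1A, a SWI/SNF chromatin remodeler subunit that binds DNA, had been knocked out with Cas9 and a pair of guides. Which knockout clone was sequenced, and whether more than 1 was, is not given in the sources used here, so effects of ARID1A loss and of a clone cannot be told apart. The study describes its expression data as biological replicates from independent experiments, and p-values measure the spread between these samples.

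SR proteins bind exonic enhancers and mostly favor exon inclusion, whereas hnRNPs coat nascent RNA and often repress exons or splice sites, and the balance between both helps to set which exons a cell keeps. The RBFOX, MBNL, CELF, PTBP and ESRP proteins add cell type preference to this basic machinery, for example in neurons, muscle and epithelia. Many of these genes limit their own output through exons or introns that send a transcript to nonsense-mediated decay, and counts per gene do not separate such transcripts from productive ones.

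The samples held 54512105 to 84088708 reverse-stranded counts, and the splicing factor genes took 1.56 to 1.70% of them in WT and 1.53 to 1.56% in ARID1A-KO samples. ARID1A itself was at 166, 178 and 177 CPM (counts scaled to library size by TMM) in WT and at 25.1, 27.5 and 25.2 CPM in ARID1A-KO samples, a log2 fold change of -2.74 (SE 0.07). Of the osteoblast markers, VIM averaged 1556 and 2779 TPM, SPARC 515 and 277 TPM and COL1A1 149 and 108 TPM in WT and ARID1A-KO, ALPL 10.52 and 1.92 TPM and RUNX2 5.999 and 5.86 TPM, while COL1A2, BGLAP and SP7 stayed at or under 0.503 TPM in every sample. Blood and endothelial markers did not exceed 0.967 TPM in any sample, and 4 of the 5 epithelial markers were under 10 TPM, with KRT18 at 494 and 366 TPM. In bulk RNA, fewer cells that express a gene and less RNA per cell cannot be told apart.

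The 4 largest changes among the splicing factor genes lay in the tissue-biased RBFOX, CELF and MBNL families, with RBFOX3 and RBFOX1 higher and CELF2 and MBNL2 lower in ARID1A-KO cells. Of the 58 genes, 53 had enough counts to be tested, and at an adjusted p under 0.05 (quasi-likelihood test of edgeR, Benjamini-Hochberg adjusted over all 19599 tested genes) 6 rose, 13 fell and 34 were not called. The called share was 35.8%, beside 36.2% of all tested genes, of which 17.8% rose and 18.4% fell. The CPM of the genotypes did not overlap for 28 of the genes (52.8%), 10 higher and 18 lower in ARID1A-KO. The same held for 49.5% of all tested genes, 4858 higher and 4851 lower. The median log2 fold change of the splicing factor genes was -0.08, beside 0.01 over all tested genes. Of their 53 estimates, 35 were negative, beside 9626 of the 19599 estimates over all tested genes. With a loess offset on GC content, 7 genes fell instead of 13. Without WT replicate 3, 3 genes rose and 8 fell, without ARID1A-KO replicate 4, 3 rose and 7 fell, and without ARID1A-KO replicate 5, 6 rose and 8 fell. CELF3 (2 to 4 raw counts in WT, 8 to 16 in ARID1A-KO), HNRNPCL1 (0 to 4), both CELF6 identifiers (0 to 1) and the second SRSF8 identifier (0) were not tested.

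**Figure D1:**
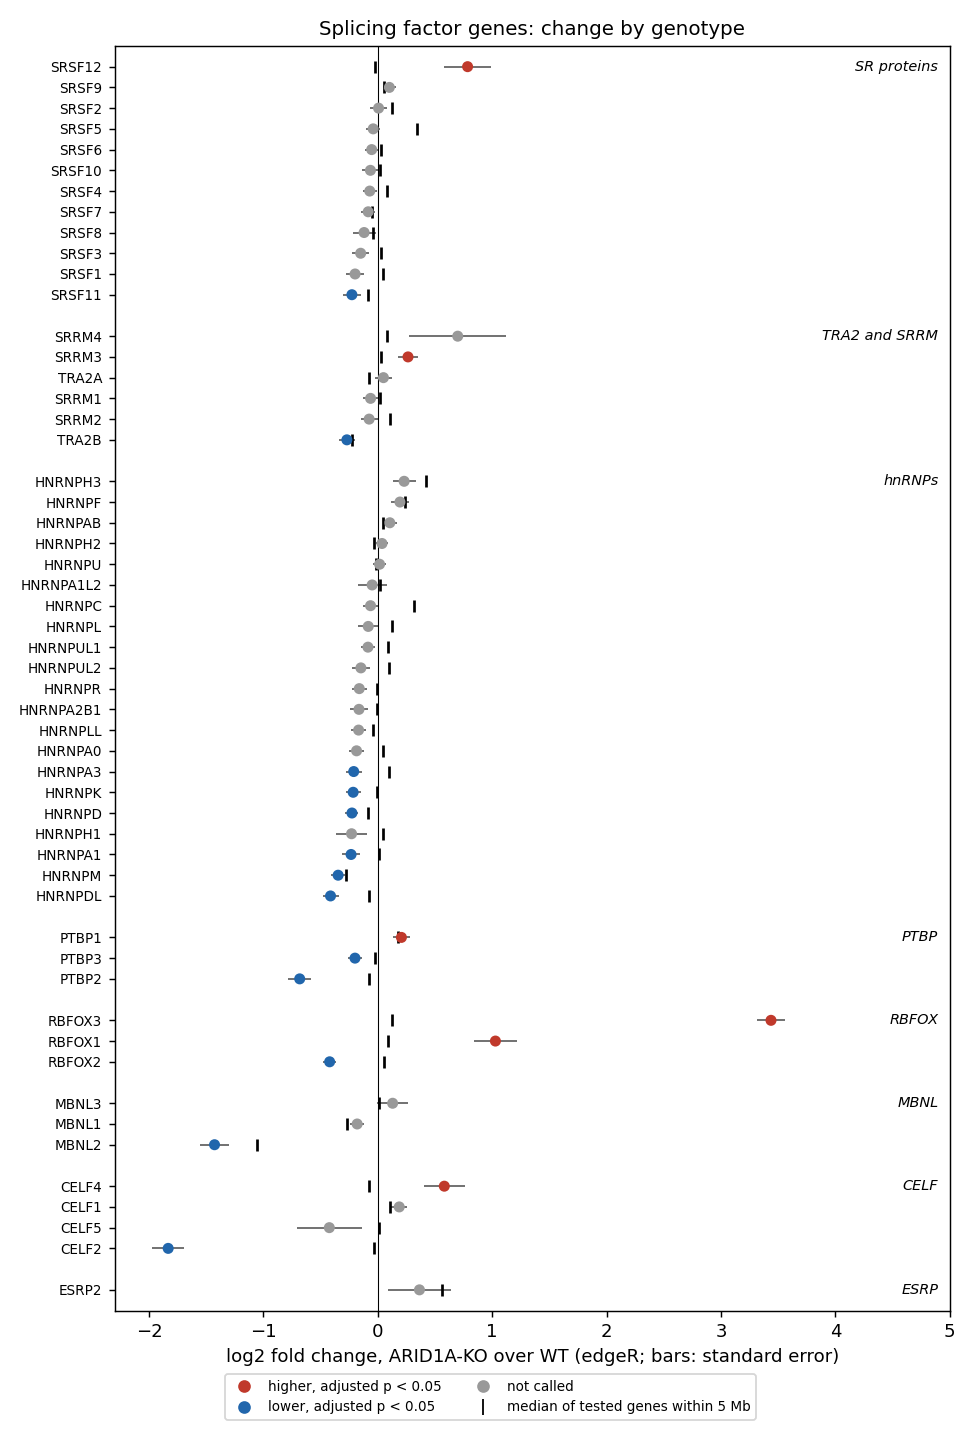
Log2 fold change (ARID1A-KO over WT) with its standard error for the 53 tested splicing factor genes, grouped by family, with the median change of the tested genes within 5 Mb as a black tick. The hnRNP genes lie between -0.41 and 0.23 and the SR genes between -0.23 and 0.79, whereas RBFOX3 stands at 3.44 and CELF2 at -1.83.

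Levels differed far more between these genes than between the genotypes. On the TPM scale, which corrects for length, HNRNPA2B1 (1018 ± 70.2, SD, n = 3) and HNRNPA1 (928 ± 60.3) led in WT cells, and their spreads touch. HNRNPAB (582 ± 22.3), SRSF1 (557 ± 62.6) and HNRNPK (551 ± 18.0) followed without separating from each other beyond their spread. Lowest in WT among the tested genes were SRRM4 at 0.0792 TPM, ESRP2 at 0.248 TPM, RBFOX1 at 0.388 TPM and CELF4 at 0.394 TPM. The summed TPM of the hnRNP genes was 6525 ± 256 in WT and 5999 ± 26.6 in ARID1A-KO, and that of the SR genes 2144 ± 115 and 2012 ± 71.5 (SD, n = 3 each).

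**Figure D2:**
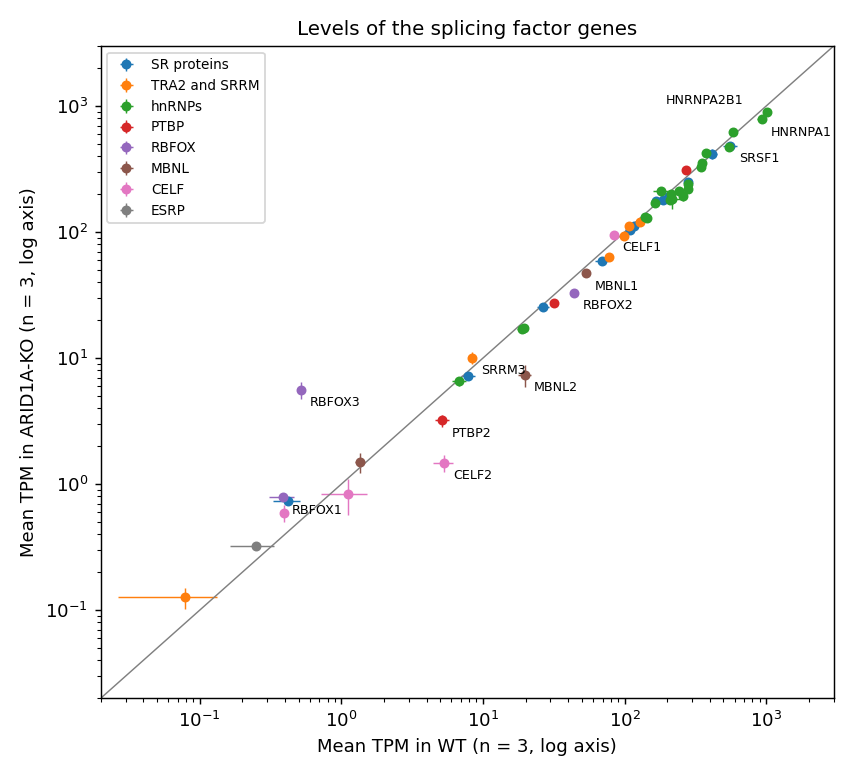
Mean TPM of the tested splicing factor genes in ARID1A-KO against WT on log axes, with SD bars (n = 3) and the line of equal levels. Abundant hnRNP and SR genes lie near the line, and RBFOX3 lies above it at 0.519 and 5.61 TPM.

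The calls were also counted by abundance. Of the 35 genes with a mean of at least 100 CPM, a limit chosen after the values were seen, 1 rose (PTBP1) and 9 fell, or 28.6% in all. Among the 2229 tested genes at that level, 13.8% rose and 22.7% fell. Their median log2 fold change was -0.08, beside -0.03 over the 2229 genes. Of the 18 genes under 100 CPM, 5 rose and 4 fell, beside 18.3% and 17.9% of the 17370 tested genes at that level.

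Of 13 SR genes, 12 were tested, 1 rose, 1 fell (16.7% called, beside 36.2% of all tested genes) and the median log2 fold change was -0.07. This difference in share was not tested. SRSF1, the founding SR protein and a proto-oncogene, was at 629, 516 and 553 CPM in WT and at 497, 478 and 504 CPM in ARID1A-KO samples. The groups did not overlap, but the log2 fold change of -0.20 (approximate 95% interval -0.35 to -0.04) had an adjusted p of 0.081 (edgeR). SRSF2, which recognizes exonic enhancers and is mutated in myeloid disease, was at 411, 375 and 362 CPM in WT and 368, 375 and 410 CPM in ARID1A-KO samples. Its groups overlapped fully, with a log2 fold change of 0.01 and an approximate 95% interval of -0.14 to 0.15. The other 8 uncalled SR genes had log2 fold changes from -0.15 (SRSF3) to 0.10 (SRSF9).

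SRSF11, which binds the branch site region, was the SR gene that fell, by 0.23 on the log2 scale (SE 0.08, adjusted p = 0.042, edgeR), and the call held in 1 of the 6 fits that leave out a sample. SRSF12, an SR protein of low expression, was at 0.570, 0.718 and 0.464 CPM in WT and 1.07, 1.02 and 0.954 CPM in ARID1A-KO samples. All ARID1A-KO samples were above all WT samples. The log2 fold change was 0.79 (SE 0.21, adjusted p = 0.016, edgeR), and it rests on 27 to 84 raw counts per sample and held in 3 of the 6 fits that leave out a sample.

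TRA2 proteins assist SR proteins at purine-rich enhancers, and SRRM1 and SRRM2 are splicing coactivators, while SRRM3 and SRRM4 favor neuronal microexons. Of the 6 genes of this group, all tested, 1 rose and 1 fell (33.3% called, beside 36.2% of all tested genes). SRRM2 was at 518, 561 and 473 CPM in WT and 471, 498 and 504 CPM in ARID1A-KO samples, and TRA2A at 122, 116 and 108 CPM in WT and 123.4, 125 and 110 CPM. Both overlapped between genotypes, with log2 fold changes of -0.08 and 0.05. TRA2B fell by 0.27 on the log2 scale (adjusted p = 0.016, edgeR) and kept the call in all 6 fits without a sample. Tested genes within 5 Mb of TRA2B had a median of -0.23 on the log2 scale, and relative to them its change was -0.04 (adjusted p = 0.68). SRRM3 rose by 0.26 on the log2 scale (adjusted p = 0.034), a change that was -0.05 with the GC offset. SRRM4 had 8 to 30 raw counts per sample and was not called.

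Of 22 hnRNP genes, 21 were tested and 6 fell (28.6%), beside 18.4% of all tested genes and 22.7% of those with at least 100 CPM. No hnRNP gene rose by edgeR at an adjusted p under 0.05 or by DESeq2. At an unadjusted p under 0.05, 2 hnRNP genes were higher and 9 lower, beside 4530 and 4472 of all 19599 tested genes. The median log2 fold change was -0.16 and 16 of the 21 estimates were negative, as were 1280 of the 2229 estimates for genes with at least 100 CPM. HNRNPA2B1, which sorts and splices RNA, was at 2488, 2221 and 2302 CPM in WT and at 2254, 2055 and 1947 CPM in ARID1A-KO samples. Its groups overlapped, and the log2 fold change of -0.16 was not called (unadjusted p = 0.070, adjusted p = 0.14, edgeR). The approximate 95% interval of -0.32 to -0.01 is too narrow, as the unadjusted p is above 0.05. HNRNPA1, a repressor of exon inclusion, was at 1502, 1465 and 1348 CPM in WT and at 1322, 1213 and 1136 CPM in ARID1A-KO samples. All ARID1A-KO samples were below the lowest WT sample, and it fell by 0.23 on the log2 scale (SE 0.08, adjusted p = 0.044, edgeR). The HNRNPA1 call held in 2 of the 6 fits that leave out a sample, and the gene shares sequence with many pseudogenes, so how its reads were assigned is uncertain.

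HNRNPDL and HNRNPM changed most among the hnRNP genes. HNRNPDL, a relative of the RNA-decay factor HNRNPD, was at 431, 412 and 384 CPM in WT and at 307, 290 and 324 CPM in ARID1A-KO samples. The groups did not overlap, and it fell by 0.41 on the log2 scale (SE 0.07, adjusted p = 0.0017, edgeR). The call held in all 16 alternative settings, and its neighbours had a median of -0.08. HNRNPM, which binds GU-rich introns, was at 491, 457 and 490 CPM in WT and at 375, 371 and 385 CPM in ARID1A-KO samples. It fell by 0.35 on the log2 scale (SE 0.06, adjusted p = 0.0019, edgeR), and the call held in all 6 fits without a sample. Of the 258 tested genes within 5 Mb of HNRNPM, 206 had negative estimates (median -0.28), and relative to them its change was -0.07 (adjusted p = 0.40).

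HNRNPD itself fell by 0.23 on the log2 scale (adjusted p = 0.012, edgeR), and so did HNRNPK (0.22, adjusted p = 0.030), a poly-C binder, and HNRNPA3 (0.21, adjusted p = 0.044), a relative of HNRNPA1. Leaving out a sample kept these calls in 5 of 6 fits for HNRNPD and in 1 of 6 for HNRNPK and HNRNPA3. Relative to its neighbours the change of HNRNPD was -0.14 (adjusted p = 0.085, edgeR) and no longer called. HNRNPK (-0.21, adjusted p = 0.037) and HNRNPA3 (-0.31, adjusted p = 0.0098) kept the call. Among the uncalled genes HNRNPU, a nuclear scaffold protein, had a log2 fold change of 0.02, and HNRNPF and HNRNPH3, which bind G-runs, of 0.19 and 0.23. HNRNPH1 was at 754, 581 and 536 CPM in WT and 500, 482 and 614 CPM in ARID1A-KO samples, so 1 WT sample stood apart and the groups overlapped.

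HNRNPD and HNRNPDL lie on the same strand of chromosome 4 (GRCh37, 83273651 to 83295656 and 83343717 to 83351294, minus strand). As both fell, their promoters are shown together with that of HNRNPM, from the RefSeq annotation of GRCh38.p14 and 5′ to 3′ on the gene's strand. Capitals mark a match on either strand to CCAAT, the GC box GGGCGG, the ETS core CCGGAAG, the AP-1 letters TGANTCA, the E-box CACGTG or TATAAA. The regions are chr4:82373942-82374241 (minus strand), chr4:82430413-82430712 (minus strand, the more upstream of 2 annotated starts) and chr19:8444725-8445024 (plus strand).
HNRNPD: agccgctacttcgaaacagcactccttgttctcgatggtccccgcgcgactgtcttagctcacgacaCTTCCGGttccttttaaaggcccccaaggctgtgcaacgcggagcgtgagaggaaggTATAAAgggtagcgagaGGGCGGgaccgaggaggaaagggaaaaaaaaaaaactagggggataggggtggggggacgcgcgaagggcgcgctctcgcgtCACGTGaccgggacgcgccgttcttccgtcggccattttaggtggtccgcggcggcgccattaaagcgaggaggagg
HNRNPDL: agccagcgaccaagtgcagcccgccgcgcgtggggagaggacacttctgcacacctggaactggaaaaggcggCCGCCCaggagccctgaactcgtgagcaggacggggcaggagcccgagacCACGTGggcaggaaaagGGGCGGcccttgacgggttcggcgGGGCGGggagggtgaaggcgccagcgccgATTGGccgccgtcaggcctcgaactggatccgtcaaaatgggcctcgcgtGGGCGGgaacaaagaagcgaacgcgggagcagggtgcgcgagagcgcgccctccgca
HNRNPM: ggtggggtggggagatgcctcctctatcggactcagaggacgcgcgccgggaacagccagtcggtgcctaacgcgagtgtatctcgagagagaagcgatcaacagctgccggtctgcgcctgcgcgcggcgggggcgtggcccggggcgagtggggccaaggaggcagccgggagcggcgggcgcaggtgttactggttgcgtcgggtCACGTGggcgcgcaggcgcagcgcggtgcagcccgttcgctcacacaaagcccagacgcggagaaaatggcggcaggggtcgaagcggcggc
The HNRNPD promoter held 1 GC box, 1 ETS core, 1 E-box and 1 TATA match, that of HNRNPDL held 1 CCAAT box, 4 GC boxes and 1 E-box, and that of HNRNPM held 1 E-box. An E-box was thus present in each of the 3. It was present in 7.26% of all 35116 promoters and in 11 of the 103 promoters of the splicing factor genes (10.7%). The 3 were picked after the changes of their genes were seen, and HNRNPA1, HNRNPK and HNRNPA3, which also fell, are not among them. The promoters of PTBP2, which fell as well, and of RBFOX3 held no E-box. Whether E-boxes are more frequent in genes that fell was not tested. A GC box was present in 54 of the 103 (52.4%) and in 45% of all promoters, and an AP-1 match in 2 (1.94%) and in 7.71%. The 103 promoters belong to 51 of the 56 names, with a median CpG observed-to-expected ratio of 0.825, beside 0.579 over all promoters. These are letter matches and no binding sites.

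PTBP proteins bind polypyrimidine tracts, and the neuronal member PTBP2 replaces PTBP1 during neuronal differentiation. All 3 PTBP genes were called, beside 36.2% of all tested genes. PTBP1 was at 566, 540 and 613 CPM in WT and at 631, 694 and 659 CPM in ARID1A-KO samples, and the lowest ARID1A-KO sample exceeded the highest WT sample. It rose by 0.21 on the log2 scale (SE 0.07, adjusted p = 0.047, edgeR), a call held in 1 of the 6 fits without a sample, and relative to its neighbours the change was 0.03 (adjusted p = 0.78). PTBP3 was at 73.8, 74.5 and 69.3 CPM in WT and 64.2, 64.7 and 60.6 CPM in ARID1A-KO samples. It fell by 0.20 (adjusted p = 0.029), and the groups did not overlap, but the call held in 1 of 6 fits without a sample.

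PTBP2 (GRCh37, chromosome 1, 97187221 to 97289294, plus strand) was at 22.8, 18.5 and 20.9 CPM in WT and at 12.4, 12.2 and 14.1 CPM in ARID1A-KO samples. All ARID1A-KO samples were below the lowest WT sample, and it fell by 0.68 on the log2 scale (SE 0.10, adjusted p = 0.00076, edgeR). The call held in every one of the 16 alternatives, with a log2 fold change of -0.464 under a loess offset on exonic length. Its share of the summed PTBP TPM was 1.68 ± 0.16% in WT and 0.94 ± 0.09% in ARID1A-KO (SD, n = 3). The single PTBP2 start in the table is shown because PTBP2 was called lower in every alternative, at chr1:96722388-96722687 (RefSeq, GRCh38.p14, plus strand).
PTBP2: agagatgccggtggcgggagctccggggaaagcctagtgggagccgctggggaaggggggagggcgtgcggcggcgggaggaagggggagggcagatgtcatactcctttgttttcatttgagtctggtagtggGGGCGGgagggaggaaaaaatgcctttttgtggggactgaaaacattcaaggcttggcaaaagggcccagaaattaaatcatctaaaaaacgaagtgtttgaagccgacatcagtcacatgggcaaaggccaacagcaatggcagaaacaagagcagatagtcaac
This promoter held 1 GC box and none of the other letters searched.

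RBFOX proteins bind UGCAUG, and RBFOX3, also known as NeuN, is a marker of mature neurons. All 3 RBFOX genes were called, 2 higher and 1 lower, beside 36.2% of all tested genes. RBFOX2, the widely expressed member, was at 139, 128 and 136 CPM in WT and at 101, 97.3 and 102 CPM in ARID1A-KO samples. Every ARID1A-KO sample was below every WT sample, and it fell by 0.42 on the log2 scale (SE 0.06, adjusted p = 0.000574, edgeR). The call held in all 16 alternatives, with a log2 fold change of -0.26 under a loess offset on exonic length.

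RBFOX3 (GRCh37, chromosome 17, 77085427 to 77613550, minus strand) was at 1.59, 1.55 and 1.63 CPM in WT and at 15.3, 17.1 and 19.4 CPM in ARID1A-KO samples. These come from 95 to 110 raw counts in WT and 938 to 1703 in ARID1A-KO samples. The log2 fold change was 3.44 (SE 0.12, approximate 95% interval 3.19 to 3.68, adjusted p = 4.58e-07, edgeR). It was the largest rise among the 53 tested splicing factor genes and was called in all 16 alternatives. The median of its 199 neighbours was 0.12. The other neuronal markers moved in both directions, with SYP 1.95 and MAP2 0.66 higher and SNAP25 0.70 lower on the log2 scale, while STMN2 was not called. The summed TPM of these 4 markers was 16.9 to 21.4 in WT and 31.4 to 37.3 in ARID1A-KO samples. SYP carried this rise, with means of 6.31 TPM in WT and 24.3 TPM in ARID1A-KO. MAP2 averaged 2.80 and 4.42 TPM, SNAP25 8.18 and 5.02 TPM and STMN2 1.55 and 1.13 TPM. The part of these markers in the RBFOX3 result was not tested.

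RBFOX1, expressed in neurons and muscle, was at 0.809, 0.902 and 1.20 CPM in WT and at 2.13, 1.95 and 1.85 CPM in ARID1A-KO samples. It rose without overlap by 1.03 on the log2 scale (SE 0.19, adjusted p = 0.0025, edgeR), on 54 to 163 raw counts per sample. The call held in all 16 alternatives. Of the 4 muscle markers, MYOD1 rose by 2.001 and ACTC1 by 1.12 on the log2 scale, and MYH3 and DES were not called. MYOD1 was near the floor, at 0.0515 to 0.0704 CPM in WT and 0.218 to 0.279 CPM in ARID1A-KO samples. The summed TPM of the 4 muscle markers was 3.04 to 3.455 in WT and 4.66 to 5.91 in ARID1A-KO samples. Most of this rise was ACTC1, with means of 1.36 and 2.94 TPM. The part of these markers in the RBFOX1 result was not tested. With RBFOX2 lower and RBFOX3 higher, the make-up of the family shifted. RBFOX2 gave 98.0 ± 0.20% of the summed RBFOX TPM in WT and 83.7 ± 1.23% in ARID1A-KO, and RBFOX3 gave 1.16 ± 0.03% and 14.3 ± 1.40% (SD, n = 3). The summed RBFOX TPM was 44.9 ± 2.17 in WT and 39.1 ± 2.39 in ARID1A-KO.

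The most upstream of the 12 annotated RBFOX3 starts is shown, as the gene with the largest rise, at chr17:79658926-79659225 (RefSeq, GRCh38.p14, minus strand). Counts per gene do not tell which start was used.
RBFOX3: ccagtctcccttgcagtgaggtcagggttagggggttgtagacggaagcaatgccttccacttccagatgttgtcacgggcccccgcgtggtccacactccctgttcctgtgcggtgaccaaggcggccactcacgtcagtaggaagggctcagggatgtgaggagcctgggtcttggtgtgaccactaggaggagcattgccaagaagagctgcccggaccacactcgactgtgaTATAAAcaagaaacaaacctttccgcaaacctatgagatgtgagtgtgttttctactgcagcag
It held 1 TATA match, beside 11.5% of all promoters, and its CpG ratio was 0.432.

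**Figure D3:**
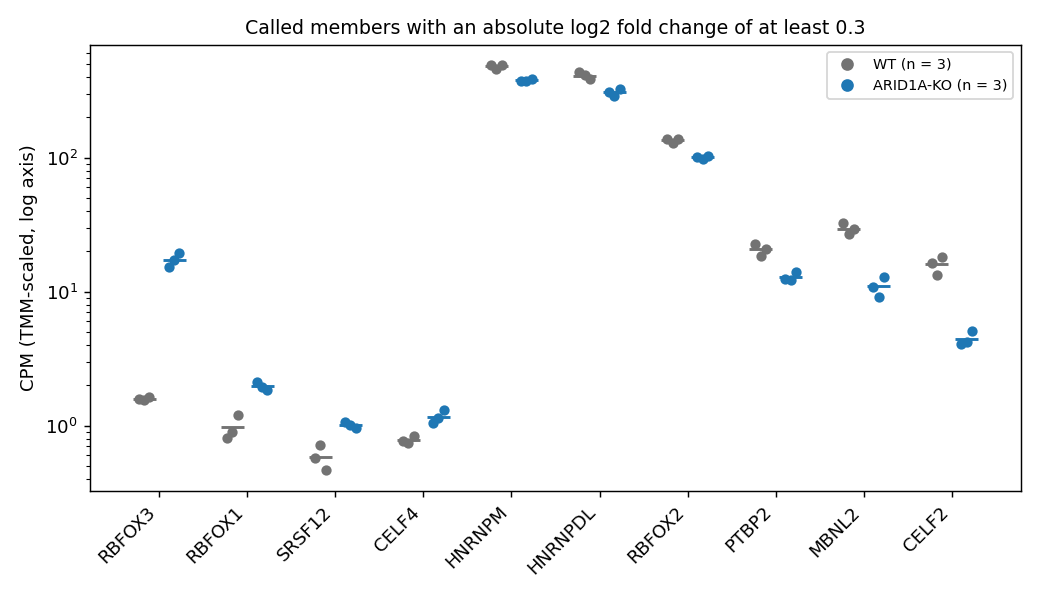
CPM (log axis) of the 10 called genes with an absolute log2 fold change of at least 0.3 in each WT and ARID1A-KO sample, with the mean as a line. The genotypes do not overlap for any of the 10 genes, and the gap is widest for RBFOX3.

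MBNL proteins control fetal to adult splicing switches in muscle and are sequestered in myotonic dystrophy. None of the 3 MBNL genes rose, by edgeR, by DESeq2 or at an unadjusted p under 0.05. By edgeR 1 fell (33.3% called, beside 36.2% of all tested genes). MBNL1 was at 171, 166 and 153 CPM in WT and at 146, 139 and 147 CPM in ARID1A-KO samples, without overlap. Its log2 fold change of -0.18 was not called by edgeR (adjusted p = 0.051), whereas DESeq2 (adjusted p = 0.0497), RLE scaling, unstranded counts, the filter of 10 counts and the fit without WT replicate 5 placed it under 0.05. Relative to its neighbours it was 0.09. MBNL2 (GRCh37, chromosome 13, 97873688 to 98046374, plus strand) was at 32.5, 26.9 and 29.1 CPM in WT and at 10.8, 9.13 and 12.8 CPM in ARID1A-KO samples. The groups lay far apart, and it fell by 1.43 on the log2 scale (SE 0.13, adjusted p = 4.43e-05, edgeR). The call held in all 6 fits without a sample. All 25 tested genes within 5 Mb of MBNL2 had negative estimates, 23 of them called lower, with a median of -1.06. Relative to these the change of MBNL2 was -0.37 (adjusted p = 0.050), which was no longer called. MBNL2 gave 26.5 ± 1.77% of the summed MBNL TPM in WT and 13.05 ± 1.605% in ARID1A-KO (SD, n = 3).

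CELF proteins bind GU-rich sequences and often oppose MBNL proteins. Of 7 CELF genes, 4 were tested, 1 rose and 1 fell (50% called, beside 36.2% of all tested genes). CELF1, the abundant member, was at 260, 271 and 269 CPM in WT and at 318, 317 and 276 CPM in ARID1A-KO samples. The groups did not overlap, but the log2 fold change of 0.19 was not called (adjusted p = 0.063, edgeR). CELF4 was at 0.764, 0.747 and 0.842 CPM in WT and 1.04, 1.15 and 1.32 CPM in ARID1A-KO samples, on 49 to 116 raw counts. It rose by 0.58 on the log2 scale (adjusted p = 0.030, edgeR), held in 2 of the 6 fits without a sample, and was not called by DESeq2 (adjusted p = 0.093).

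CELF2, which acts in muscle, brain and T cells (GRCh37, chromosome 10, 11047259 to 11378674, plus strand), was at 16.3, 13.3 and 18.2 CPM in WT and at 4.08, 4.20 and 5.08 CPM in ARID1A-KO samples. Every ARID1A-KO sample was below every WT sample. It fell by 1.83 on the log2 scale (SE 0.14, adjusted p = 2.17e-05, edgeR), while its 56 neighbours had a median of -0.03. The call held in all 16 alternatives. Counted without regard to strand, it fell by 0.84, since counts on the opposite strand of this gene were higher in ARID1A-KO. Its share of the summed CELF TPM was 5.84 ± 0.88% in WT and 1.52 ± 0.30% in ARID1A-KO (SD, n = 3). The single ESRP gene examined, ESRP2, a driver of epithelial splicing, was at 0.480, 0.521 and 0.258 CPM in WT and 0.573, 0.546 and 0.523 CPM in ARID1A-KO samples and was not called by edgeR or DESeq2 (log2 fold change 0.36).

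**Figure D4:**
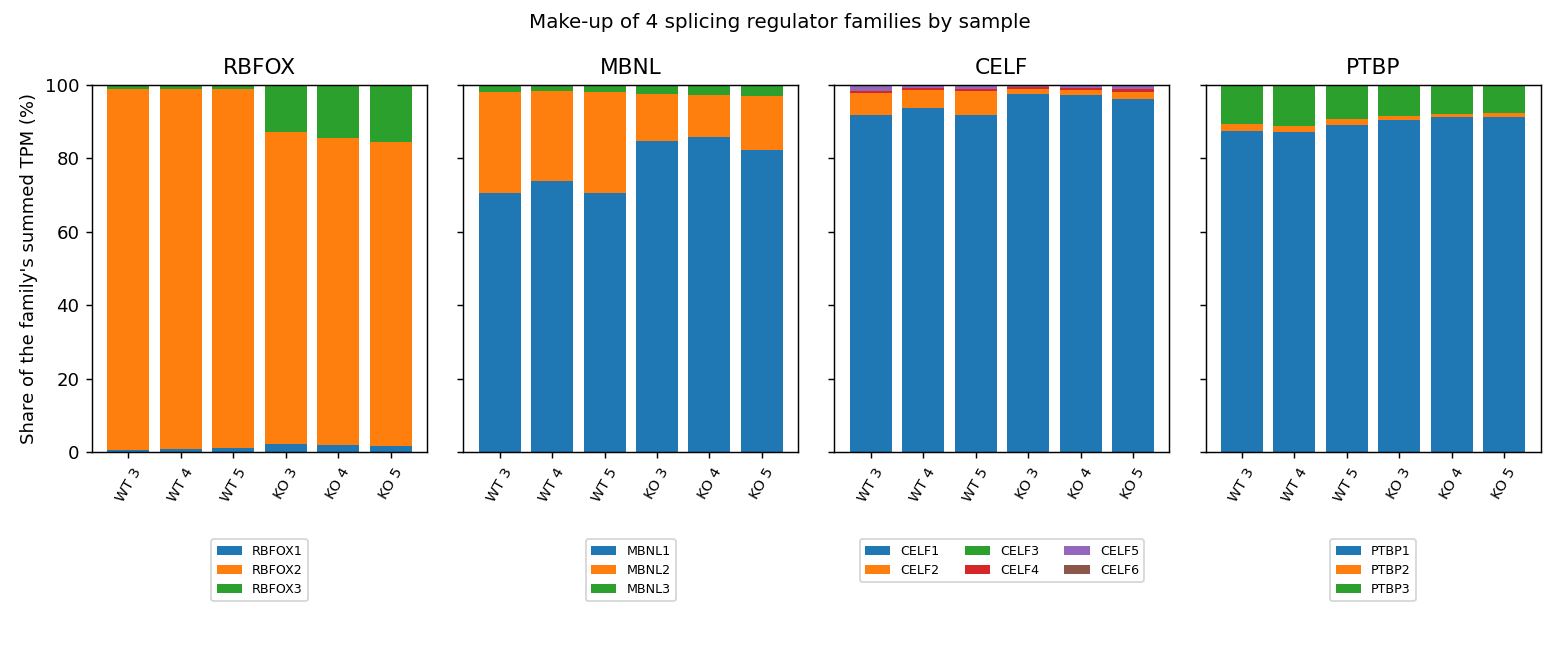
Share of each gene in the summed TPM of its family in every sample, for the RBFOX, MBNL, CELF and PTBP genes. RBFOX3 takes 12.8 to 15.5% in ARID1A-KO and 1.12 to 1.18% in WT samples, and MBNL2 and CELF2 take smaller shares in ARID1A-KO.

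Of the 53 tested splicing factor genes, 38 (71.7%) have an annotated nonsense-mediated decay transcript in GENCODE, beside 33.4% of all tested genes, and 40 (75.5%) have a retained-intron transcript, beside 43.7%. Their median number of transcripts was 14, beside 6. Of the 125 pseudogenes left out, 14 were tested, and 3 were called. HNRNPCP1 rose by 0.83, and HNRNPA1P66 and HNRNPA1P33 fell by 1.53 and 2.92 on the log2 scale. These names were chosen after their values were seen.

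Other genes of the splicing pathway were described from 6 lists. Of 153 genes, 147 were tested, 17 rose and 21 fell (25.9% called, beside 36.2% of all tested genes), with a median log2 fold change of -0.01. The difference from the splicing factor genes and from all genes was not tested. For each list below, the shares to compare are 17.8% higher and 18.4% lower over all tested genes. Of the 17 U1 and Sm genes, 16 were tested, 1 fell (LUC7L3, 0.33) and none rose by edgeR, DESeq2 or at an unadjusted p under 0.05. Of the 20 U2 and branch site genes, 2 rose, SF3B3 (0.58) and SF3A2 (0.57), and SUGP1 fell by 0.28. In the tri-snRNP and catalytic core list 2 of 25 genes rose, led by the helicase DHX38 (0.81) and SART1 (0.19), and 4 fell, led by PLRG1 (1.17) and XAB2 (0.37). Neighbours of PLRG1, DHX38 and SF3B3 had medians of -0.96, 0.55 and 0.52, and those of SUGP1 and XAB2 of -0.37 and -0.27. Medians near LUC7L3, SF3A2 and SART1 were -0.003, 0.08 and 0.12.

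The kinases, phosphatase and importer that act on SR proteins had 3 of 16 tested genes higher, led by the kinase CLK3 (0.31) and the phosphatase subunit PPP1CA (0.27). None of these fell by edgeR or DESeq2. At an unadjusted p under 0.05, 5 of them were higher and 3 lower, beside 4530 and 4472 of all 19599 tested genes. Of 18 nonsense-mediated decay and exon junction genes, 3 rose, led by UPF3B (0.43) and ACIN1 (0.28), and 5 fell, led by the helicase UPF1 (0.71) and MAGOHB (0.28). Among 52 tested other regulators, 7 rose, led by MSI1 (0.79) and RALY (0.74), and 10 fell, led by QKI (1.58) and RBM24 (0.98). Neighbours of QKI had a median of -1.02, those of UPF1 of -0.37 and those of ACIN1 of 0.31. Medians near the other genes named in this paragraph lay between -0.11 (RBM24) and 0.22 (RALY).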

How the data were processed

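RNA-seq of untreated AID-DIvA cells (3 WT and 3 ARID1A-KO samples) was used. The methods describe a total RNA kit, whereas the labels say polyA RNA. Reads were aligned to GRCh37 with STAR by the authors, who counted them with featureCounts and deposited raw counts. TPM values, which the authors scaled over all genes, and exonic lengths were deposited in the same tables. How reads that match several places were counted is not given in the sources used here.

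Reverse-stranded counts were filtered with filterByExpr, scaled by TMM and compared with edgeR 4.0.16 (quasi-likelihood test, two-sided, Benjamini-Hochberg adjustment over 19599 genes) under R 4.3.3, all 6 samples, without covariates. Genes are called at an adjusted p under 0.05. The common biological coefficient of variation was 0.111. On simulated data the fit recovered 27 of 65 changes of 0.5, 48 of 63 of 1 and 63 of 66 of 2 on the log2 scale. There were 14 false calls. These changes were set in few of 19285 genes, whereas 36.2% of all tested genes were called between the genotypes. Recovery at such a share of changes, or at the levels of the splicing factor genes, was not tested. An uncalled gene can have changed by a small amount. Intervals are 95%. Every splicing factor gene called with an absolute log2 fold change of at least 0.3 and the 2 most abundant of each group in WT are given in every sample, untested ones by name, the others by range or count. From each other list the 2 largest called rises and falls are named. The members and lists were chosen with earlier results of these data known.

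Alternatives were DESeq2 1.42.0, RLE, other filters, unstranded counts, loess offsets (span 0.3) on GC content and length, subtraction of the median of neighbours within 5 Mb, the replicate block, each sample left out and an adjusted p under 0.01. Leaving out PTBP1, PTBP2, PTBP3 and ESRP2 was added after seeing the data.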

Additional observations from a re-analysis of the deposited data

Results flagged for a closer look

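At CELF2, counts on the strand opposite to the gene, which entered only the unstranded alternative, were higher in ARID1A-KO. They were 98, 109 and 65 in WT and 326, 223 and 580 in ARID1A-KO samples, which is a mean of 1.35 and 5.25 CPM when scaled to the reverse-stranded library size. CELF2 overlaps 4 genes on the opposite strand, and which of them the counts belong to was not tested.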

How the results depend on the processing

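Of the 19 called splicing factor genes, 18 kept the call with the replicate block, 17 with DESeq2, 18 with RLE and 17 with unstranded counts. The call was kept by 9 with the GC offset, 14 with the length offset and 11 relative to neighbours. Of the 34 uncalled genes, 2 became called with the GC offset, 2 with the length offset and 5 relative to neighbours. At an adjusted p under 0.01, 2 rose and 6 fell, and 11 of the other splicing genes rose. With the GC offset 7 fell. Leaving out each sample gave 3 to 7 higher and 7 to 12 lower genes. Without PTBP1, PTBP2, PTBP3 and ESRP2, 5 rose and 11 fell. Over genes of at least 1 TPM in every sample the median WT level was 155 TPM, against 103 TPM.

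With the replicate block 6 rose and 13 fell. PTBP1 was the call lost (adjusted p = 0.058, edgeR), and 1 gene not called before was called. Same-numbered samples correlated in their deviations from the group mean at -0.24, 0.49 and 0.32. WT replicate 5 correlated best with its own number, and WT replicate 3 did not. WT replicate 4 correlated about alike with ARID1A-KO replicates 4 (0.49) and 3 (0.486). ARID1A-KO replicate 5 correlated more with WT replicate 3 (0.405) than with WT replicate 5 (0.322). With 3 samples per group, these correlations cannot decide whether the numbers are a pairing.

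Of the estimates that changed sign, SRRM3 was the only one called, and the cause was not tested. Relative to neighbours they were ESRP2 (-0.195), MBNL1 (0.086), SRSF2 (-0.115), HNRNPF (-0.044) and HNRNPH3 (-0.193). With the length offset they were SRSF10 (0.103), SRSF2 (-0.033), SRRM1 (0.047), SRRM2 (0.145), HNRNPC (0.021) and HNRNPH2 (-0.022). With the GC offset they were SRSF10 (0.007), SRSF2 (-0.006), SRSF5 (0.042), SRRM3 (-0.045), HNRNPA1L2 (0.014) and HNRNPC (0.026). SRSF2 was at -0.122 with unstranded counts. Leaving out each sample gave ranges of -0.108 to 0.005 for SRSF10, -0.042 to 0.052 for SRSF2, -0.109 to 0.050 for HNRNPA1L2 and -0.133 to 0.008 for HNRNPL. Depth limits RBFOX1, CELF4, SRSF12, SRRM4 and ESRP2, all with at most 163 raw counts per sample.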
